A study of Mus musculus with 21 samples.

Results

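The first 4 h of a soluble mannose receptor's action on macrophages were examined here, by comparing 3 RNA-seq libraries of cells given FcMR with 3 libraries of cells given an isotype control protein. These 6 libraries were chosen by their titles, which give treatment, time and replicate number, from the 21 libraries of the series. FcMR is a recombinant protein that joins the Fc part of human IgG1 to the extracellular part of the mannose receptor. Bone marrow of C57BL/6J mice had been cultured for 7 days with 2.5% supernatant of cells that secrete GM-CSF, a growth factor for myeloid cells, and the series describes the macrophages of all groups, controls included, as deficient in the mannose receptor. Age, sex and the number of mice were not given in the sources used here, nor was it stated that replicates came from separate mice or cultures, so p-values measure the spread between these libraries, which may be technical. Cells left untreated (0 h, 3 libraries) gave the starting level, and the same comparison at 12 h and 24 h, each with 3 libraries a group, showed how long an early difference lasted.

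The mannose receptor is a lectin of macrophages that binds and takes up glycoproteins, and its extracellular part can be released from the cell. Macrophages that meet an inflammatory stimulus first switch on genes held ready for NF-kB, a transcription factor kept in the cytoplasm by IkB proteins. Many of these first genes encode cytokines, and others encode proteins that end the response, by destroying mRNA or by blocking kinases. Interferon beta made in this first wave then acts on the same cells through STAT factors and turns on a second, antiviral set of genes. A first sample at 4 h can thus hold parts of both waves together with the loss of transcripts that are short-lived or no longer made.

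Totals at 4 h were 16705064, 31978437 and 6306625 estimated counts in FcMR replicates 1 to 3 and 6948189, 5532225 and 9171892 in the isotype replicates. With 3 counts as a floor, the lowest level that a library could show lay between 0.0938 and 0.542 CPM, the usual depth-scaled count, before TMM scaling, counting error alone considered. Mrc1, which encodes the mannose receptor, had 0, 11 and 2 counts with FcMR and 4, 0 and 0 with isotype (chromosome 2, 14229392 to 14332057), too few to test. Of 10 macrophage markers Fcgr1 and Mertk rose and Csf1r fell. The summed level of the 10 was 28793 to 29149 CPM with FcMR and 27988 to 31639 CPM with isotype, most of it from Lyz2. T and NK cell markers summed to 401 to 447 and 410 to 512 CPM, most of it from Il7r, and Cd3g and Klrb1c had at most 3 counts in each of the 6 libraries. Of 8 mast cell and basophil markers the histamine-forming enzyme Hdc rose, and their sum was 72.1 to 82.7 CPM with FcMR and 43.8 to 56.8 CPM with isotype. Stromal markers summed to 8.57 to 9.85 and 6.61 to 7.94 CPM, with Pdgfrb higher and Col1a2, Col3a1 and Lum at 3 counts or fewer per library. B cell markers summed to 32.1 to 43.9 and 31.7 to 44.8 CPM, with Cd22 lower, dendritic cell markers to 1794 to 2007 and 1548 to 1651 CPM, with Ccr7 higher, and granulocyte markers to 998 to 1184 and 1019 to 1362 CPM. The erythroid markers summed to 0.188 to 3.73 CPM with FcMR and to 3.36 to 23.1 CPM with isotype, and the 2 of them that could be tested did not pass. The part of other cells in the results was not tested. In such bulk samples fewer cells of a type and less RNA per cell cannot be told apart.

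The isotype libraries differed in how strongly GC-rich transcripts were represented, a fact to keep beside the results that follow. GC tilt compares, within a library, the 10% of genes with the highest GC content and the 10% with the lowest, as a difference of mean log2 levels taken relative to all libraries. It was −0.37, −0.15 and −0.48 in FcMR replicates 1 to 3, and −0.83, −1.58 and 0.64 in the isotype replicates. The isotype values thus surrounded those of FcMR, and replicate 3 of isotype stood apart from the other two. In the library numbers of the samples, this library (3356) and FcMR replicate 1 of 12 h (3355) stand in exchanged order. The latter's tilt of −0.72 lies away from its own group at 0.72 and 0.80. By library number, tilt was −1.58 to −0.15 in all of 3350 to 3355, and 0.59 to 0.82 in all of 3356 to 3361. Each of these 2 libraries thus had a tilt like its neighbours in number. What lies behind this order was not tested. Leaving out isotype replicate 3 of 4 h gave 1614 genes higher and 1537 lower, as against the counts that follow. Leaving out both that library and FcMR replicate 1 of 12 h gave 2093 and 1805. Among the richest 10% of genes the median standard deviation of log2 CPM over replicates was 0.77 with isotype and 0.18 with FcMR, and 2.53% of these genes were called higher and 1.93% lower, beside 12.6% and 11.9% in the sixth of 10 equal bins by GC content. In the poorest 10% these values were 0.29 and 0.15. The median log2 fold change went from −0.17 in the poorest 10% through −0.06 in the sixth bin to 0.07 in the ninth, and was −0.08 in the richest. A correction that takes a smooth curve of GC content out of each library brought these medians to between −0.07 and −0.01.

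**Figure D1:**
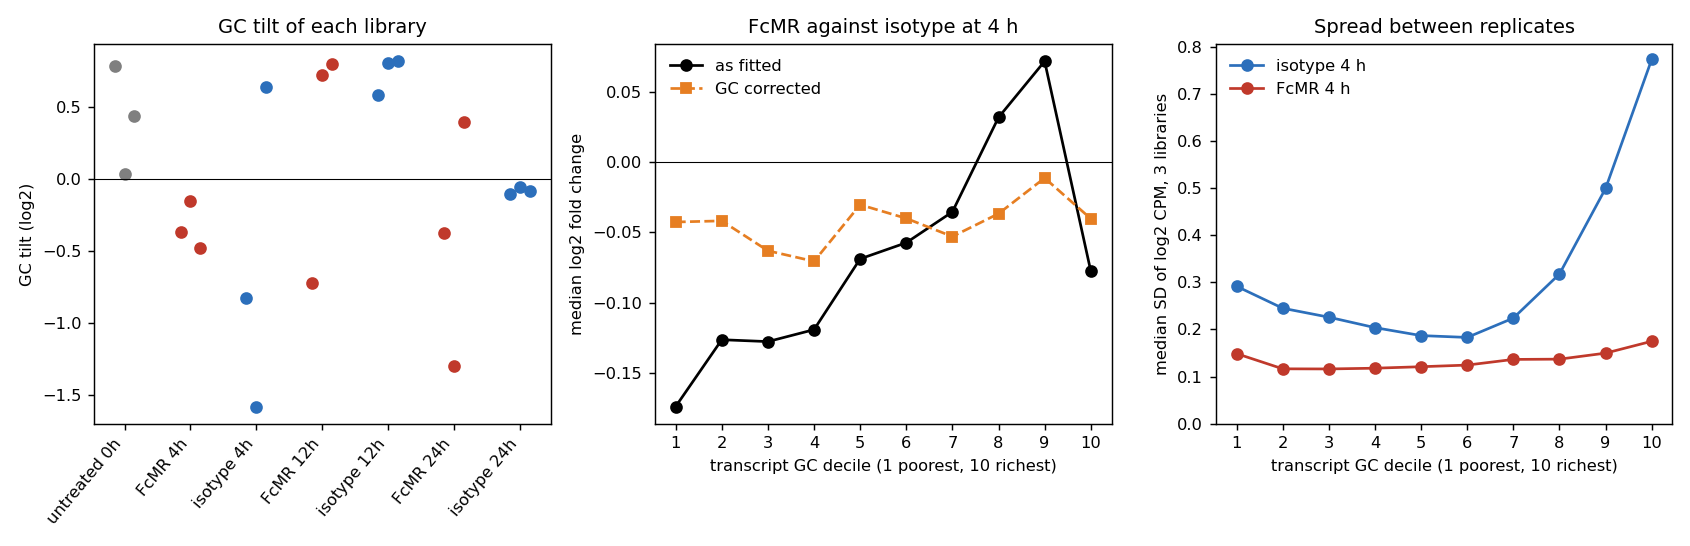
Left, GC tilt (log2) of each of the 21 libraries by group, grey for untreated, red for FcMR and blue for isotype. Middle, median log2 fold change of FcMR against isotype at 4 h in each of 10 bins of genes by transcript GC content, as fitted and after GC correction. Right, median standard deviation of log2 CPM over the 3 replicates in the same bins. The isotype libraries of 4 h span −1.58 to 0.64 in tilt, and their spread reaches 0.77 in the richest bin.

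Of 13468 genes tested, 2390 (17.7%) differed between FcMR and isotype at 4 h at an edgeR adjusted p under 0.05. These were 1161 higher genes (8.62%) and 1229 lower genes (9.13%). The higher genes changed more: 327 rose by at least 1 on the log2 scale and 52 by at least 2, against 181 and 21 lower genes. Their median changes were 0.72 and −0.60, beside −0.07 over all tested genes. Over untreated cells the higher genes had medians of 0.74 with isotype and 1.44 with FcMR, and the lower genes −0.03 and −0.64. FcMR and isotype libraries did not overlap for 3994 genes (29.7%), 1817 higher (13.5%) and 2177 lower (16.2%). This held for 1146 of the higher calls and 1163 of the lower calls.

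How many genes counted as lowered depended more on the libraries and scaling than how many counted as raised. After GC correction 1956 genes were called higher and 1885 lower, and 1122 of the 1161 higher and 1183 of the 1229 lower calls were among them, with 0 turned to the other direction. With the 6 libraries fitted alone, 868 of 11769 genes (7.38%) were called, 628 higher and 240 lower. Other ways of scaling or filtering gave 1412 and 839 (RLE factors), 1509 and 835 (DESeq2), 1315 and 666 (limma on the authors' normalized values), 1331 and 439 (no expression filter), 1119 and 671 (libraries thinned to the smallest total) and 1196 and 1048 (limma voom). Upper-quartile factors went the other way, with 1043 higher and 1352 lower. The median of all genes, −0.07 as fitted, was −0.11 with upper-quartile factors and 0.04 without the expression filter, and lay between these under the other settings just named. Under all 21 alternatives, 570 of the higher calls and 188 of the lower calls remained.

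Outside the classic cytokines and chemokines, the protein-coding genes raised most at 4 h included Shisa3, Nos2, Ptgs2, Slc1a2, U90926, Edn1, Gm10031, Rnf225, Thbs4, Oasl1 and Dll4. Their log2 fold changes ran from 3.82 for Shisa3 to 2.32 for Dll4, and by the rule that named them each had all FcMR libraries above all isotype libraries. Ptgs2 (chromosome 1, 150100031 to 150108227, GRCm38), the inducible cyclooxygenase of prostaglandin synthesis, was at 2280.5, 2470.3 and 2445 CPM with FcMR and 283, 275 and 235 with isotype. Replicates lay close together in both groups, and the difference was 3.18 (SE 0.191, edgeR adjusted p 5.48e-09). Nos2 (chromosome 11, 78920787 to 78960254), which makes nitric oxide, was at 207, 258 and 218 CPM with FcMR and 22, 15.9 and 35.7 with isotype, a difference of 3.20 (SE 0.249, edgeR adjusted p 1.3e-07). The isotype libraries differed among themselves here, yet the highest stayed far under the lowest FcMR library.

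Edn1 (chromosome 13, 42301476 to 42307990), the precursor of the vessel-constricting peptide endothelin-1, was at 196, 206 and 227 CPM with FcMR and 31.3, 30.3 and 31.9 with isotype. Untreated cells held 26.1, 23.9 and 27.4 CPM, so the isotype libraries were near the starting level and the FcMR libraries were not. The change was 2.75 (SE 0.167, edgeR adjusted p 6.3e-09). Slc1a2 (chromosome 2, 102658659 to 102790784), a glutamate transporter, was at 28.9, 35.1 and 30.6 CPM with FcMR, 4.45, 3.43 and 5.1 with isotype and under 1 CPM in untreated cells, a difference of 2.84 (SE 0.166, edgeR adjusted p 4.3e-09). Both treated groups were above untreated cells for this gene, by 6.24 and 3.40 on the log2 scale. U90926 was at 37, 33.7 and 37.6 CPM against 6.61, 5.05 and 4.17. The difference was 2.78 (SE 0.213).

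Shisa3, Thbs4 and Rnf225 were scarce in the isotype libraries. The first, a membrane protein that holds back Wnt and FGF receptors in the endoplasmic reticulum, was at 6.37, 5.79 and 10.6 CPM with FcMR, while its isotype libraries held 4, 2 and 5 counts. Thbs4, a matrix glycoprotein, had 3, 5 and 7 counts with isotype and was at 3.26, 4.21 and 3.54 CPM with FcMR. Rnf225, a RING finger protein, had 8, 6 and 5 counts with isotype and was at 4.11, 5.91 and 5.22 CPM with FcMR. Dll4, a ligand of Notch receptors, was at 9.14, 13.3 and 11.2 CPM against 1.72, 1.44 and 3.36. So few counts leave the size of the first 3 folds loose. Gm10031 is an annotated gene model without a known function whose level in untreated cells varied from 0 to 7.76 CPM. Its change of 2.73 (SE 0.743, edgeR adjusted p 0.0156) was called under 16 of the 21 alternatives, where the other 10 genes named here as raised most were called under all 21.

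**Figure D2:**
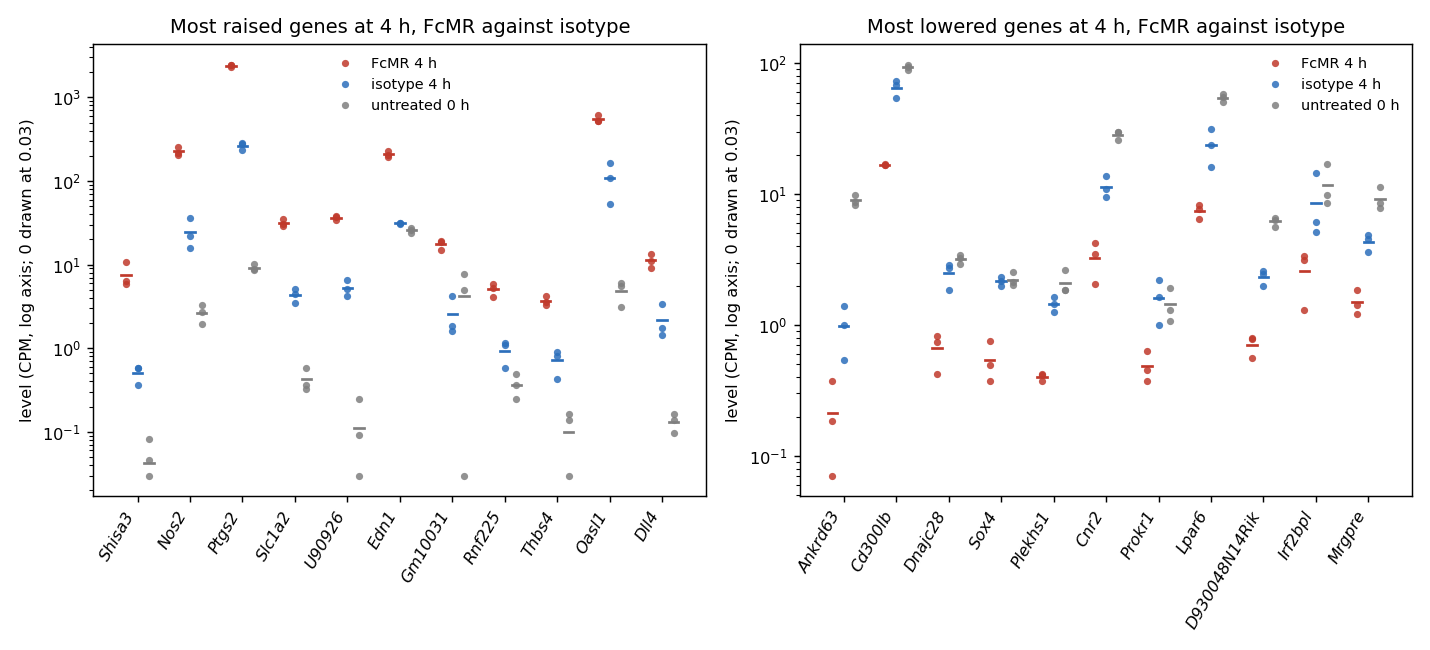
Levels (CPM after TMM scaling, log axis) of 11 of the most raised and 11 of the most lowered genes in each FcMR 4 h (red), isotype 4 h (blue) and untreated (grey) library; points are libraries and bars are means of 3, and levels of 0 are drawn at the bottom. By the rule that chose these genes red and blue points do not overlap; Ptgs2 lies at 2280.5 to 2470.3 CPM with FcMR against 235 to 283 with isotype, and Edn1 with isotype lies near its untreated level.

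The genes lowered most included Ankrd63, Cd300lb, Dnajc28, Sox4, Plekhs1, Cnr2, Prokr1, Lpar6, D930048N14Rik, Irf2bpl and Mrgpre, with log2 fold changes from −2.01 to −1.58. Cd300lb (chromosome 11, 114922781 to 114934386), an activating receptor of the CD300 family, was the best measured. It stood at 16.6, 17.1 and 16.6 CPM with FcMR and 72.5, 68.4 and 54.3 with isotype, beside 88.6, 97.6 and 93.8 in untreated cells. FcMR libraries were thus far below both other groups, by −1.95 against isotype (SE 0.098, edgeR adjusted p 8.75e-10). Cnr2, the cannabinoid receptor of immune cells, was at 4.25, 3.46 and 2.05 CPM with FcMR, 10.9, 13.7 and 9.5 with isotype and 29.7, 29.7 and 25.7 in untreated cells. Lpar6, a receptor for lysophosphatidic acid that lies within Rb1, was at 8.29, 6.47 and 7.64 CPM with FcMR, 23.8, 31.2 and 16.1 with isotype and 50.1, 54.7 and 58.5 in untreated cells. For both genes the isotype libraries lay between the FcMR and the untreated ones. The receptor genes Prokr1 and Mrgpre fell by 1.68 and 1.58 from low levels of 1.01 to 2.2 and 3.59 to 4.87 CPM.

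Among transcription factors, Sox4, a developmental factor, was at 0.496, 0.752 and 0.373 CPM with FcMR against 2.15, 1.98 and 2.32 with isotype. Irf2bpl, a zinc-binding nuclear protein, was at 3.12, 3.39 and 1.3 CPM against 5.17, 6.13 and 14.4, and was not called when the 6 libraries were fitted alone (edgeR adjusted p 0.089). Plekhs1 (a pleckstrin homology protein) and Dnajc28 (a J-domain protein) were at or under 0.828 CPM in each FcMR library and at 1.26 to 2.87 CPM with isotype. Ankrd63, an ankyrin repeat protein, rested on 1, 10 and 1 counts against 7, 3 and 12. Of the 11 genes named here as lowered most, 7 were called under all 21 alternatives. Of the 22 genes named at both ends, 11 overlap another annotated gene, 10 of them on the opposite strand, among them Shisa3, Edn1, Oasl1, Dll4, Cd300lb, Sox4, Lpar6 and Dnajc28. The library kit does not mark strand, so reads of such partners cannot be told apart.

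Ranked by p instead of by size, the leading raised genes outside the cytokines were Slc1a2, Nfkbiz, Ccrl2 and Rapgef2. Ccrl2, a receptor-like protein that binds the attractant chemerin, was at 647, 659 and 613 CPM with FcMR and 190, 168 and 211 with isotype (1.75, SE 0.0875, edgeR adjusted p 8.75e-10). Rapgef2, which activates the small GTPase Rap, was at 191, 213 and 196 CPM against 86.9, 78.5 and 82.8 (1.27, SE 0.0726). In both the replicates were tight and the groups far apart. The leading lowered genes were Cd300lb, Rab7b, Snx30 and Zfp704. Rab7b, a GTPase of endosomal transport, was at 60.8, 57.1 and 52.4 CPM with FcMR, 143, 135 and 127 with isotype and 120, 136 and 140 in untreated cells. Its isotype level was thus close to that of untreated cells, and FcMR was lower by −1.25 (SE 0.0763, edgeR adjusted p 6.46e-09). Snx30, a sorting nexin of endosomes, was at 12.4, 13 and 13.6 CPM against 29, 25.4 and 25.4, and had already fallen with isotype from 84, 85.9 and 82.6 in untreated cells (−1.66).

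Among 19 lists of genes grouped by function, cytokines and interferon-stimulated genes had the highest shares called higher. Of 36 classic cytokines and chemokines 34 rose, with a median log2 fold change of 2.24, and 0 fell. Ccl12 (0.80, edgeR adjusted p 0.13) and Ccl9 (0.29, edgeR adjusted p 0.22) did not pass. Over untreated cells the median of this list was 2.41 with isotype and 4.91 with FcMR. Csf2, which encodes GM-CSF, is in this list too, and was at 9.14, 7.52 and 6.89 CPM with FcMR against 1.29, 0.541 and 0.116 with isotype. Over all genes 8.62% were called higher and 9.13% lower, the background for this and the following counts from the fit of all libraries. For counts after GC correction it is 14.5% and 14%, for the 6 libraries alone 5.34% and 2.04%, and without isotype replicate 3 it is 11.5% and 11%. Leaving out any 1 of the other libraries gave 6.35% to 8.15% higher and 4.10% to 5.91% lower. Where a list had 0 lower members by edgeR (cytokines, NF-kB, interferon-stimulated genes, MHC class II and growth factors), DESeq2 gave 0 too, and an unadjusted p under 0.05 gave 0 except for 1 growth factor. The other alternatives gave 0 as well, except for 2 growth factors with GC tilt as a covariate, 1 with a replicate block, and 1 NF-kB gene without the libraries out of title order.

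**Figure D3:**
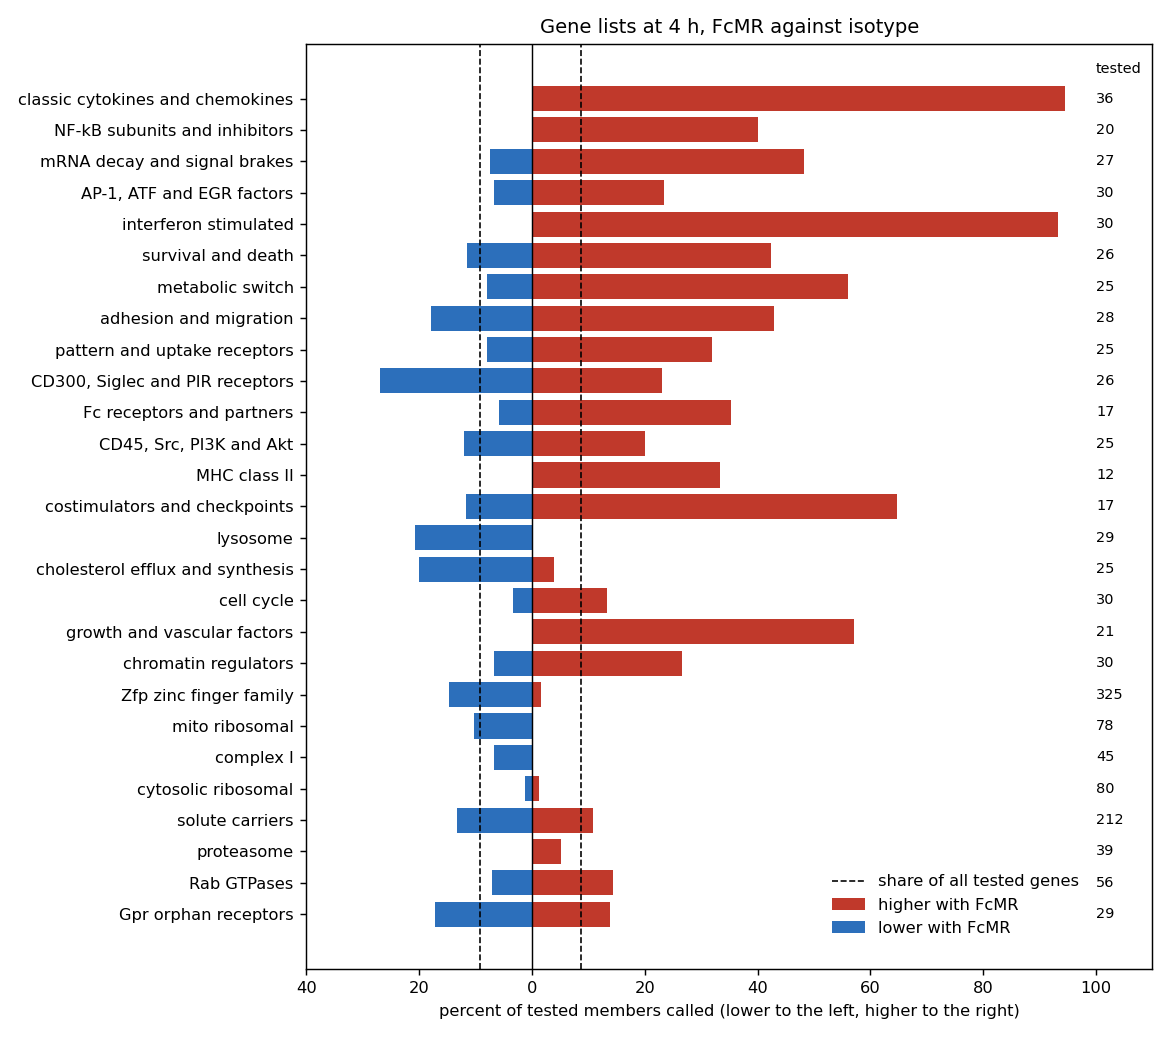
Percent of tested members of each gene list or name family called lower (blue, to the left) or higher (red, to the right) with FcMR at 4 h, with the number tested at the right; dashed lines are the shares over all tested genes, 9.13% lower and 8.62% higher. Cytokines (94.4% higher) and interferon-stimulated genes (93.3%) stand at one end, while lysosome genes have 0 members called higher and the Zfp family has 14.8% called lower.

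NF-kB subunits and their inhibitors had 8 of 20 members higher, 0 lower and a median of 0.65. Nfkbiz (chromosome 16, 55811375 to 55838899), an IkB protein of the nucleus that helps switch on secondary genes, led the list with 544, 591 and 553 CPM with FcMR, 138, 101 and 149 with isotype and 30.4, 33.4 and 33 in untreated cells. Its groups were wide apart, at 2.12 (SE 0.116, edgeR adjusted p 2.28e-09). Tnfaip3, the A20 enzyme that ends NF-kB signals, was at 1382, 1578 and 1564 CPM against 610, 564 and 608 (1.34), and the adaptor Traf1 at 457, 504 and 443 against 233, 163 and 292 (1.03). Nfkbia, the IkB protein that holds NF-kB in the cytoplasm, was at 761, 840 and 794 CPM against 358, 290 and 564 (0.98), with isotype replicate 3 the nearest to FcMR. The subunits Nfkb1 (0.93) and Rel (0.68) rose, while Nfkb2 (0.95, edgeR adjusted p 0.056), Rela (0.65, edgeR adjusted p 0.135) and Relb (0.35, edgeR adjusted p 0.444) did not pass. These last genes were chosen after their values were seen. Rela was at 140, 160 and 153 CPM with FcMR and 84, 51.2 and 152 with isotype, so that replicate 3 alone reached the FcMR level. This list has a median GC content of 54.0%, and its count was 14 after GC correction or without isotype replicate 3, and 5 in the 6 libraries alone.

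The windows of 250 bases before the start of 3 of these raised genes are shown because each holds the kappa B consensus, the sequence that NF-kB binds. They are RefSeq sequences of build GRCm38.p6, read 5′ to 3′ on the strand of the gene, with the matches on either strand in capitals: Oasl1 at chr5:114922990-114923239 (plus strand), Tnfaip3 at chr10:19015411-19015660 (minus strand) and Nfkbia at chr12:55492648-55492897 (minus strand).
Oasl1: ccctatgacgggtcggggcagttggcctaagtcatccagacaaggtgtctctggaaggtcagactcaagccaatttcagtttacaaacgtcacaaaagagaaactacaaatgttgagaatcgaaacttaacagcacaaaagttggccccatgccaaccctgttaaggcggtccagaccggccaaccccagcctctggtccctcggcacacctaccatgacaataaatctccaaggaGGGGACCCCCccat
Tnfaip3: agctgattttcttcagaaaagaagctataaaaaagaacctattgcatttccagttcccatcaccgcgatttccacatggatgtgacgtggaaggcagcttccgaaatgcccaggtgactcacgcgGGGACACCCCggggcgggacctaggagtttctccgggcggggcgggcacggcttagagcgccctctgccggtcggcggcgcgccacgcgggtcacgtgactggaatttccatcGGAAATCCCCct
Nfkbia: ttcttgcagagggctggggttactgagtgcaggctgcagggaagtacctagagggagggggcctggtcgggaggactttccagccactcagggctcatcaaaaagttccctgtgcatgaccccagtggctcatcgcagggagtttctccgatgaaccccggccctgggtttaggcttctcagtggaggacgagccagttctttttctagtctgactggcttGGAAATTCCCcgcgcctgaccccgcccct
Tnfaip3 holds 2 matches, of which the second ends 2 bases before the start. The consensus stood in 3.90% of all 32851 such windows and in 5.55% of tested genes with a window. Of the genes called higher 9.65% held it (85 of 881), of those called lower 3.81% (37 of 971), and of the NF-kB list 9 of 17. A match is a description of the sequence and not evidence of binding.

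Genes whose products destroy mRNA or block signals, a group of brakes, had 13 of 27 members higher and 2 lower (median 0.66). Spry1, an inhibitor of growth factor signals, rose by 2.05 from few counts (7, 4 and 11 with isotype). Cish and Socs3, inhibitors of cytokine receptors, were at 83.3, 94.5 and 74.2 CPM against 24.6, 16.8 and 29 (1.84) and at 332, 370 and 353 against 97.7, 57 and 164 (1.72). For Cish the isotype libraries were below the untreated ones (46.7, 40.2 and 38.8 CPM) and the FcMR libraries above them. The phosphatase Dusp14 rose by 1.69. Of the members that fell, both named after their values were seen, Zfp36l2, which promotes mRNA decay, dropped by 0.83 and the ERK phosphatase Dusp6 dropped by 0.66, and 1 was lower without isotype replicate 2 or in the 6 libraries alone.

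Interferon-stimulated genes rose almost throughout, with 28 of 30 higher, 0 lower and a median of 1.01. GC correction gave 28 higher, and the 6 libraries alone 26. Over untreated cells the list's median was already 3.41 with isotype, and it was 4.48 with FcMR. Why the isotype libraries were above untreated cells was not tested. Oasl1, Isg20, Gbp5 and Isg15 rose most. Gbp5 (chromosome 3), a guanylate-binding protein of the defence against microbes, was at 1479, 1452 and 1505 CPM with FcMR and 472, 485 and 472 with isotype, beside 14.1, 13.9 and 8.5 in untreated cells (1.63, SE 0.168). All replicates lay close, and both treated groups were far above untreated cells, by 6.92 and 5.29 on the log2 scale. Oasl1, which restrains translation of Irf7, was at 529, 612 and 526 CPM against 108, 52.7 and 164 (2.36, SE 0.32), and Isg15, a ubiquitin-like modifier, at 950.4, 1157 and 1077 against 337, 212 and 488 (1.62, SE 0.224). For Oasl1, Isg15 and Isg20 isotype replicate 2, the library with the lowest GC tilt, was the lowest of the isotype libraries and replicate 3 the highest, and none reached an FcMR library. Bst2 (0.35, edgeR adjusted p 0.46) and Oas2 (0.32, edgeR adjusted p 0.16) did not pass.

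Windows of Gbp5, at chr3:142496684-142496933 (plus strand), and Isg15, at chr4:156200819-156201068 (minus strand), are shown for the interferon response element, searched as TTTC, any 2 bases and TTTC on both strands. Matches to this element are again in capitals, and the sequences are from RefSeq (GRCm38.p6). The Gbp5 window also holds a kappa B match, the same bases as in Nfkbia, left in small letters.
Gbp5: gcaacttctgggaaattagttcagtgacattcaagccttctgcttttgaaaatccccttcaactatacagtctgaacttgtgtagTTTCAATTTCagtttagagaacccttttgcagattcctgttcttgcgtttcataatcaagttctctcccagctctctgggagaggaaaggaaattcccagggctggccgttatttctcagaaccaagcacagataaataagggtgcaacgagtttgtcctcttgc
Isg15: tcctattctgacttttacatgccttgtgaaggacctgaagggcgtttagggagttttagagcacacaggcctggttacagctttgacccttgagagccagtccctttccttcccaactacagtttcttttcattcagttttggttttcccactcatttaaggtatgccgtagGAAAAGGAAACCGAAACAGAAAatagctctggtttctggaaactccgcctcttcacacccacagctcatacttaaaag
In Isg15 the 3 matches overlap and lie on the opposite strand. This element stood in 2.98% of all windows, 3.60% of tested genes, 9.99% of genes called higher (88 of 881), 2.68% of those called lower (26 of 971) and 12 of 24 interferon-stimulated genes with a window.

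Secreted growth and vascular factors had 12 of 21 members higher, 0 lower and a median of 0.78, and 12 were higher in the 6 libraries alone. Beside Edn1, the acute-phase protein Saa3 was higher, at 428, 504 and 479 CPM with FcMR and 138, 93.8 and 173 with isotype (1.80). Hdc, which forms histamine, was at 30.7, 31.7 and 31.1 CPM against 7.61, 8.84 and 11.6 (1.73), and the untreated cells were between, at 20.9, 14.1 and 21.3. As given with the cell markers, the other 7 mast cell and basophil genes did not pass. Others that rose, named after their values were seen, were the EGF receptor ligands Areg (1.72) and Ereg (1.69), the activin subunit Inhba (1.41) and the iron-binding defence protein Lcn2 (1.34). Vegfa (−0.37) and Igf1 (−0.23) did not pass.

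Metabolic genes of activated macrophages had 14 of 25 members higher and 2 lower (median 0.48). Besides Nos2, Ptgs2 and Slc1a2, the most raised was Ptges, which makes prostaglandin E from the product of Ptgs2, at 38.2, 43.7 and 41 CPM against 16.4, 11.4 and 23.1 (1.26). Named after their values were seen, Acod1, which makes itaconate, rose by 1.14 and the hexokinase Hk2 by 0.48, while the constitutive cyclooxygenase Ptgs1 fell by 0.70 and the citrate cycle-linked Idh1 by 0.73. The glycolytic genes Ldha (0.31, edgeR adjusted p 0.12), Slc2a1 (0.25, edgeR adjusted p 0.67) and Pfkfb3 (0.22, edgeR adjusted p 0.11) did not pass.

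Survival and death genes had 11 of 26 members higher (42.3%, beside 8.62% of all genes) and 3 lower (11.5%, near the 9.13% of all genes). The kinase Pim1 was at 461, 467 and 433 CPM with FcMR, 183, 142 and 236 with isotype and 193, 192 and 225 in untreated cells (1.28 against isotype, SE 0.137). Every FcMR library was above the untreated ones, while the isotype libraries lay on both sides of them. Ripk2, the kinase of NOD receptors, was at 154, 166 and 155 CPM against 77.4, 69.1 and 63.4 (1.18). Bcl2l1, which encodes the protective Bcl-xL, was at 162, 185 and 143 CPM against 80.7, 62.4 and 111 (0.95), and Pim3 rose by 0.99. Of the members that fell, Bmf (−0.66) and Pmaip1 (−0.65) promote death and Bcl2 (−0.52) opposes it, and the death-promoting Bcl2l11 rose by 0.84; these were named after their values were seen. GC correction gave 17 higher and 3 lower, and the 6 libraries alone 9 and 1.

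Of 30 cell cycle genes 4 were higher and 1 lower (median −0.10), and the lower call was lost in most alternatives, among them leaving out any 1 library other than isotype replicate 1. Ccnd2 (cyclin D2) was at 727, 775 and 656 CPM against 242, 275 and 202 (1.59, SE 0.168), and Cdkn1a, the p21 inhibitor of cyclin-dependent kinases, at 1481, 1709.6 and 1492.5 against 762, 626 and 923 (1.02, SE 0.115). The groups were apart for both, although their products act in opposite directions on division. Plk2 rose by 0.89, and replication genes such as Mcm2 (−0.30, edgeR adjusted p 0.38) and mitotic genes such as Ccnb1 (−0.30, edgeR adjusted p 0.61) did not pass.

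Immediate early factors of the AP-1, ATF and EGR families had 7 of 30 members higher and 2 lower (median 0.17), with 3 higher in the 6 libraries alone and 11 without isotype replicate 3, and 1 lower without FcMR replicate 3 or isotype replicate 3 or in the 6 libraries alone, and 4 lower after GC correction. Batf2, an interferon-responsive partner of AP-1, was at 33.1, 32.3 and 26.3 CPM against 10.3, 6.13 and 13.1 (1.62). The nuclear receptor Nr4a3 was at 477, 483 and 398 CPM with FcMR, 205, 220 and 186 with isotype and 184, 202 and 207 in untreated cells (1.16, SE 0.146), so isotype lay at the starting level. Fos was lower, at 9.42, 10 and 8.2 CPM against 15.8, 14.4 and 22.7 (−0.93). Junb, named after its values were seen, was at 48.6, 51.5 and 37.5 CPM with FcMR and 16.9, 6.67 and 211 with isotype, so that its groups overlapped widely (edgeR adjusted p 0.64). Of 30 chromatin regulators 8 were higher and 2 lower (median 0.05), led by Arid5a (1.37), an RNA-binding protein that stabilises cytokine mRNA, Hivep3 (1.0) and the demethylase Kdm4a (0.89), while the remodeller Smarca2 was at 14.4, 11.2 and 10.6 CPM against 19.8, 21.8 and 20.5 (−0.77). In the 6 libraries alone 5 were higher and 1 lower, and GC correction gave 5 lower.

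Costimulators and checkpoint ligands, which macrophages show to T cells, had 11 of 17 members higher and 2 lower (median 0.67). Cd40 was at 1002, 1340.0 and 1246.5 CPM with FcMR and 359, 231 and 445 with isotype (1.79, SE 0.192), Slamf1 rose by 1.34, Nectin2 by 1.28 and Tnfsf4 by 0.96. The groups did not overlap for Cd40, and isotype replicate 2 was the lowest. Havcr2 (−0.85) and Vsir (−0.78), inhibitory receptors named after their values were seen, fell, with 1 lower without isotype replicate 3 or in the 6 libraries alone. MHC class II genes had 4 of 12 higher and 0 lower (median 0.38), among them H2-Oa at 13, 13.5 and 12.5 CPM against 7.47, 4.15 and 9.5. That count was 0 in the 6 libraries alone, 0 without FcMR replicate 2 or isotype replicate 2, 1 without FcMR replicate 1, 2 without isotype replicate 1, 7 without isotype replicate 3 and 7 after GC correction. So the count changed with most single libraries, while the list's median stayed between 0.25 and 0.54 when 1 library was left out and was 0.37 in the 6 libraries alone.

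CD300, Siglec and paired receptors, which set the threshold of myeloid activation, had 6 of 26 members higher and 7 lower (median −0.07), so the list had calls in both directions. Beside Cd300lb, Cd300a was lower, at 31.7, 28.5 and 34.8 CPM with FcMR and 59.6, 64.9 and 63.4 with isotype (−0.99, SE 0.0941), and the CD200 receptor Cd200r1 was at 80, 60.4 and 71.7 CPM against 130, 144 and 108 (−0.85). Siglece, an inhibitory sialic acid receptor, was higher (0.75), as were Trem1 (0.73) and Pilra (0.67), both named after their values were seen. In the 6 libraries alone 2 were higher and 4 lower, and 3 were lower without FcMR replicate 3 or isotype replicate 2. With only the untreated libraries added to the 6, 3 were higher and 6 lower.

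Pattern and uptake receptors had 8 of 25 members higher and 2 lower (median 0.19), with 5 higher in the 6 libraries alone and 6 lower after GC correction. The co-receptor Cd14 was at 704, 797 and 758 CPM against 256, 176 and 436 (1.38), and the RNA sensor Tlr3 at 49, 40.2 and 40.8 against 21, 23.1 and 18.3 (1.06). Clec4e, a lectin for microbial glycolipids, rose by 0.78, and Clec7a, the beta-glucan lectin, was lower at 824, 746 and 808 CPM against 1385, 1605 and 1041 (−0.76). Without isotype replicate 3 the lower count was 5, and without FcMR replicate 2, FcMR replicate 3 or isotype replicate 2 it was 1. Adhesion and migration genes had 12 of 28 higher and 5 lower (median 0.26), led by Ccr2 (−1.13), the receptor for Ccl2, whose groups overlapped, then Marcksl1 (0.98), the neutrophil-attractant receptor Fpr2 (0.85) and Icam1 (0.82). In the 6 libraries alone 5 were higher and 1 lower, and leaving out any single FcMR library, or isotype replicate 1 or 2, gave 1 to 3 lower.

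Receptors for the Fc part are listed because FcMR carries one. An effect that FcMR and the isotype protein share would not show in this comparison. The role of the Fc part in the changes below was not tested. Of 17 Fc receptors and signalling partners 6 were higher and 1 lower (median 0.22). The high-affinity receptor Fcgr1 was at 130, 123 and 107 CPM against 77.4, 60.8 and 71.6 (0.78), and the adaptor Lcp2 rose by 0.74. The lipid phosphatase Inpp5d, which restrains these receptors, was at 55.4, 46 and 42.1 CPM against 76.8, 82.1 and 81.6 (−0.74), and both groups were below untreated cells (114, 113 and 107). Its replicates were tight in each group. Without isotype replicate 3 the count of lower members was 3.

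Of 25 genes around CD45, Src kinases, PI3K and Akt, 5 were higher and 3 lower (median 0.19). Ptprc, which encodes CD45, was at 1119, 1081 and 1194 CPM with FcMR and 1030.4, 1211 and 817 with isotype, so the groups overlapped. Src was at 68.9, 91.4 and 93.2 CPM against 28.7, 11.2 and 59.4 (1.33, SE 0.404, edgeR adjusted p 0.0294), a call that was lost in the 6 libraries alone (edgeR adjusted p 0.168). The adaptor Pik3ap1 rose by 0.69 and the regulatory subunit Pik3r1 by 0.62, while the phosphatase Ptpn22 fell by 0.65. The higher count was 13 after GC correction, 2 in the 6 libraries alone, 3 without isotype replicate 1 and 8 without isotype replicate 3. The lower count was 0 in the 6 libraries alone or without the expression filter, and 1 without FcMR replicate 3, isotype replicate 1 or isotype replicate 2.

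Lysosomal genes had 0 of 29 members higher by edgeR (3 by DESeq2, and 3 at an unadjusted p under 0.05) and 6 lower, although their median was 0.05, above that of all genes. The 6 were small changes in enzymes and pumps, such as Atp6v0d2 (420, 366 and 374 CPM against 568, 684 and 465, −0.57), Lipa (−0.34) and the cholesterol transporter Npc1 (−0.30). The lower count was 0 in the 6 libraries alone and 0 to 2 when any 1 library other than isotype replicate 3 was left out. Genes of cholesterol synthesis and efflux had 1 of 25 higher and 5 lower (median −0.12). The one that rose was Ch25h, which makes the antiviral 25-hydroxycholesterol, at 152, 131 and 123 CPM against 30.3, 27.2 and 66.4 (1.71, SE 0.275), while the desaturase Scd2 was at 399.7, 325 and 310 against 553, 607 and 622 (−0.79), and the sterol enzyme Dhcr7 fell by 0.63. In the 6 libraries alone 2 were lower, GC correction gave 8, and leaving out FcMR replicate 2 or 3, or isotype replicate 1 or 2, gave 2 or 3. Without isotype replicate 3 there were 4 higher.

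Large protein complexes had shares of calls near or under those of all genes, 8.62% higher and 9.13% lower. Mitochondrial ribosome genes had 0 of 78 higher and 8 lower (median −0.14), complex I genes 0 of 45 higher and 3 lower (median −0.11), cytosolic ribosome genes 1 of 80 each way (median 0.09) and proteasome genes 2 of 39 higher (median 0.16). Over all alternatives the lower count of mitochondrial ribosome genes ran from 0 to 15 and that of complex I from 0 to 8, and the higher count of proteasome genes from 0 to 17. Without isotype replicate 3 cytosolic ribosome genes had 19 higher and proteasome genes 10. Solute carriers had 23 of 212 higher and 28 lower, led by Slc1a2 and by Slco3a1 (1.63), a carrier of organic anions, with 10 higher and 7 lower in the 6 libraries alone, 15 to 17 lower without any 1 FcMR library or isotype replicate 2, and 36 higher without isotype replicate 3. Rab GTPases had 8 of 56 higher and 4 lower, led by the effector gene Rab11fip1 at 431, 514 and 513 CPM against 197, 163 and 229 (1.31), and by Rab7b. Orphan receptors with the symbol Gpr had 4 of 29 higher and 5 lower (median −0.02), with 1 and 3 in the 6 libraries alone and 2 higher without FcMR replicate 2 or isotype replicate 1.

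One family named by symbol, the Zfp zinc finger genes, had far more members lower than higher. Most encode DNA-binding repressors with arrays of C2H2 zinc fingers, although the symbol also covers RNA-binding proteins such as Zfp36l2. Of 369 members 325 passed the expression filter, and of those 48 (14.8%) were lower and 5 (1.54%) higher, with a median of −0.33 beside −0.07 over all genes. The median stayed between −0.39 and −0.20 under the alternatives. The family's later effects had medians of 0.09 (12 h) and 0.15 (24 h), for which the medians of all genes are not given here. The members that fell did so by 0.43 to 2.36 with a median of −0.82, and 44 of the 48 (91.7%) had no overlap between groups, near the 94.6% of all lower calls. Their isotype means lay between 1.01 and 87.4 CPM. Zfp704 was at 15.7, 17.1 and 12.3 CPM with FcMR and 31.9, 31 and 33 with isotype (−1.07, SE 0.0892), and Zfp652 at 13.6, 14.1 and 12.7 against 23.7, 29.2 and 25.5 (−0.95, SE 0.0973). Neither came near overlap. Zfp41, at 1.06, 0.978 and 1.12 CPM against 3.02, 2.35 and 2.55 (−1.34), showed the same at a low level. Zfp808 had the largest fall on few counts (4, 6 and 0 against 7, 12 and 3), and Zfp811 rose most, by 1.99, with 3.4, 4.02 and 4.1 CPM against 0.862, 1.26 and 0.811. Zfp652 and Zfp41 were named after their values were seen.

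These genes are poor in GC, with a median of 43.6% where all tested genes have 49.0%, so they lie where the median change was most negative. Within the 3 poorest bins by GC, 34 of 190 members (17.9%) were lower, against 10.4% of the 3842 other genes there, and the medians were −0.39 and −0.13. Over bins 4 to 7 the shares lower were 13.6% of 81 members and 12.0% of 5295 other genes. After GC correction the family's median was −0.25 beside −0.04 for other genes, 77 members were lower and 10 higher, and 47 of the 48 were still lower. The count of lower members moved with the fit, as did that over all genes. It was 9 of 280 in the 6 libraries alone (3.21%, beside 2.04% of all genes), 20 of 369 without the expression filter (5.42% beside 1.89%), and 73 of 327 without isotype replicate 3 (22.3% beside 11%). When FcMR replicate 1, 2 or 3 or isotype replicate 1 or 2 was left out it was 22 to 30 (6.75% to 9.17%, beside 4.10% to 5.91%). The members have low levels (median isotype level 6.27 CPM, beside 17.4 for other genes), and close copies in this family make the assignment of reads between them uncertain. What part GC content, depth and level have in the shift was not tested beyond these values.

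**Figure D4:**
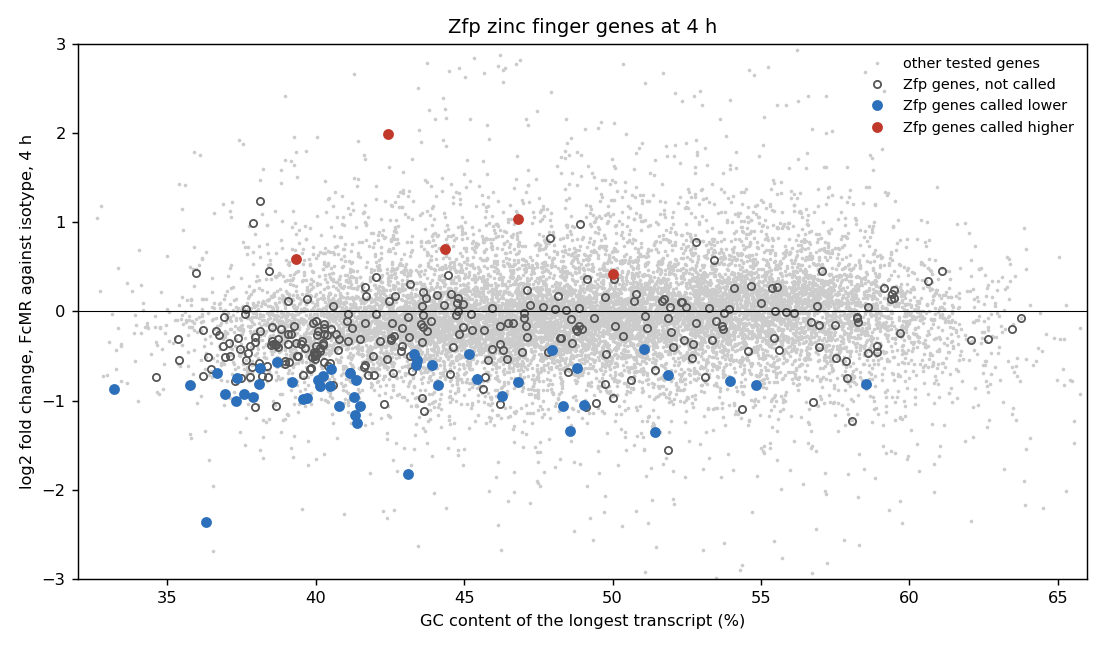
Log2 fold change of FcMR against isotype at 4 h against the GC content (%) of the longest transcript, with Zfp genes called lower in blue, called higher in red and not called as open circles, and other tested genes in grey (genes beyond the axes are not drawn). Zfp genes gather at low GC and mostly below 0, with 48 called lower and 5 higher.

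How long the 4 h differences lasted was read from the libraries of 12 h and 24 h, which share no sample with those of 4 h. Of the 1161 genes higher at 4 h, 614 (52.9%) were higher at 12 h too, which is also 52.9% of the 1160 genes higher at 12 h (8.61% of all genes), and 578 (49.8%) were higher at 24 h, 37.5% of the 1541 higher there (11.4% of all). Of the 1229 lower genes, 340 (27.7%) were lower at 12 h, 33.7% of 1009 (7.49% of all), and 312 (25.4%) at 24 h, 24.5% of 1272 (9.44% of all). Called the other way were 33 and 73 of the higher genes and 14 and 66 of the lower genes at 12 h and 24 h. A test of the difference between times called 726 genes (5.39%) for 12 h against 4 h and 1873 (13.9%) for 24 h against 4 h. By that test, the effect at 24 h was nearer to 0 or opposite for 309 of the higher genes and 464 of the lower genes, and larger for 101 and 50. The genes were chosen by the same 4 h values that the test subtracts, so a move toward 0 was favoured in advance.

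Some genes raised at 4 h had a smaller or opposite effect later. The effect on Edn1 declined from 2.75 to 0.85 (12 h) and 0.48 (24 h), and both declines passed the test of the difference (edgeR adjusted p 0.000131 and 1.29e-05). Nr4a3 went from 1.16 to −0.34 and −0.12, Cdkn1a from 1.02 to 0.21 and −0.27, and Hivep3 from 1.0 to −0.17 and −0.63. Fcgr1 and Bcl2l1 turned, from 0.78 and 0.95 at 4 h to −1.16 and −1.24 at 24 h, and for each of these 5 genes the differences from 4 h passed the test at both times. Pim1 declined from 1.28 to 0.39 and 0.46, and Arid5a from 1.37 to −0.24 at 24 h, and the difference at 24 h passed (edgeR adjusted p 0.00853 for the first and 0.0183 for the second). Others grew: Slc1a2 went from 2.84 to 3.96 and 7.25, Clec4e from 0.78 to 1.80 and 4.12, and Ptges from 1.26 to 2.32 and 3.89, again passing at both times.

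Among lowered genes, the effect on Plekhs1 changed from −1.80 to −0.23 (12 h) and 0.61 (24 h), and that on Dnajc28 from −1.85 to −0.44 and −0.05. For both the difference from 4 h passed at both times. Cd300lb was lower at each time (−1.95, −2.25 and −1.28), as were Cnr2 (−1.72, −1.94 and −1.36) and Cd300a (−0.99, −1.29 and −1.48). In the Zfp family 6 of the 48 lower members were lower at 12 h and 4 at 24 h. By the test of the difference 27 of the 48 had a smaller or opposite effect at 24 h, beside 464 of all 1229 lower genes. The family had 12 members higher (3.69%, beside 8.61% of all genes) and 13 lower (4%, beside 7.49%) at 12 h, and 22 higher (6.77%, beside 11.4%) and 8 lower (2.46%, beside 9.44%) at 24 h. GC correction raised the counts from the test over time to 1700 and 3142, and 388 and 1212 were left when libraries were thinned to the smallest total. Of the 726 and 1873 differences, 356 and 1103 were positive and 370 and 770 negative, but scaling moved this: RLE factors gave 226 against 453 and 752 against 927, DESeq2 322 against 576 and 810 against 1057, and limma on the normalized values 107 against 293 and 534 against 824, while upper-quartile factors gave 349 against 304 and 992 against 725.

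**Figure D5:**
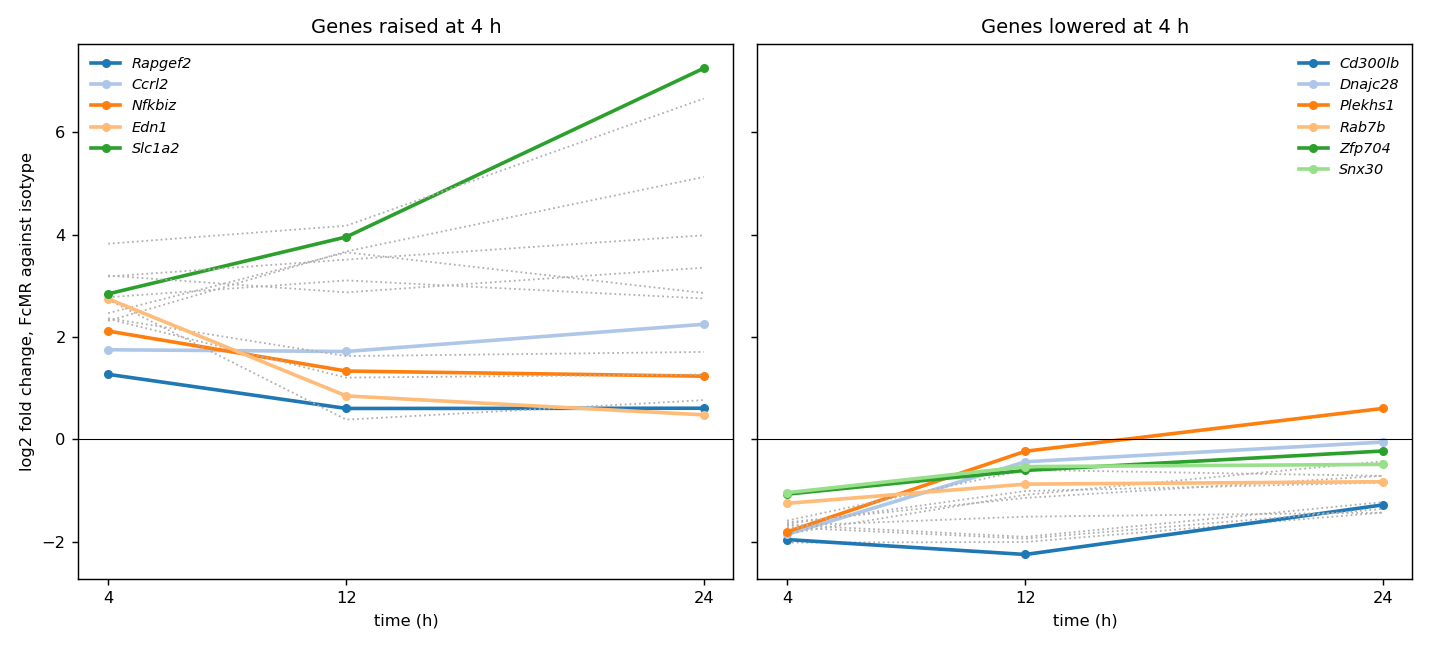
Log2 fold change of FcMR against isotype at 4, 12 and 24 h for genes named as most changed or most certain at 4 h; coloured lines are genes whose effect at 12 h or 24 h differed from that at 4 h by the edgeR test, and grey dotted lines are the others. Slc1a2 climbs from 2.84 to 7.25, Edn1 declines from 2.75 to 0.48, and Plekhs1 crosses 0.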

How the data were processed

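RNA was isolated with Trizol and a miRNeasy kit, 100 ng was made into TruSeq RNA v2 libraries and 75 bp single-end reads were sequenced on a HiSeq1500, per the labels' protocols. The submitters' processing notes name CASAVA 1.8.2, kallisto 0.44.0, DESeq2, mm10 and GRCm38, with no role or order. The authors deposited 2 gene tables. The first table the authors deposited holds estimated counts per gene, not scaled, as whole numbers for 23250 genes; the step that rounded them is not given in the sources used here. The second holds normalized values on a linear signal scale, per the values, and was used for 1 alternative.

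Groups and replicate numbers came from the sample titles. One edgeR fit (4.0.16, R 4.3.3) held all 21 libraries with a coefficient per group, so the 7 groups share an estimate of spread. It used TMM factors, filterByExpr (minimum of 10 counts, 13468 genes kept) and the quasi-likelihood test, and genes were called at a Benjamini-Hochberg adjusted p under 0.05 over all genes tested. Levels are CPM after TMM scaling, and fold changes are FcMR minus isotype on the log2 scale. Symbols, positions and transcript GC content are from GENCODE M21 (GRCm38), with a GC value for 13440 tested genes. GC correction used a spline of 5 degrees of freedom per library. Replicates correlated at r of 0.92 to 0.987 on log2 CPM, and each pair differed by more than sampling noise. In data simulated for the 4 h comparison over 13468 genes, the fit recovered 76 of 100 genes changed by 1 on the log2 scale and 98 of 100 changed by 2, with 8 false calls among 182. The simulated libraries had a common mean profile, the same spread in every group and no GC tilt. Changes were put only into genes above a low level. These rates therefore need not hold for the real libraries.

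Named genes are the 12 highest and 12 lowest protein-coding genes called, expressed at 1 or more in average log2 CPM, no overlap between groups and no place in the cytokine list; the 4 called genes with the largest change in each list and 2 in each name family; the 4 with the smallest p each way among those changed by at least 1; and Mrc1 and Ptprc. Some genes that this rule picks are not reported here and were not replaced. Other members were named after their values were seen. The comparison and the gene lists were chosen with earlier results of these data known. Promoter windows were available for 89 of 109 named genes. The alternatives were other scaling factors and filters, DESeq2 1.42.0, limma 3.58.1 (voom, and on log2 of the deposited signal plus 1), GC correction, GC tilt as a covariate, a replicate block, thinning, other sets of libraries and leaving out each library. A GC correction within the 6 libraries was added after the data had been seen.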

Additional observations from a re-analysis of the deposited data

Results flagged for a closer look

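Genes were looked at here when a test of the difference between times, in the edgeR fit of all libraries, passed for a gene among those named as most changed or most certain at 4 h. Each value is the FcMR effect at the later time minus that at 4 h, on the log2 scale. These genes were picked by their 4 h values, which enter the difference, so a smaller later effect was favoured in advance. Among raised genes Slc1a2 grew by 1.11 at 12 h and 4.41 at 24 h, from 4.45, 3.43 and 5.1 CPM with isotype and 28.9, 35.1 and 30.6 CPM with FcMR at 4 h. Ccrl2 grew by 0.50 at 24 h. Edn1 changed by −1.90 and −2.27, Nfkbiz by −0.78 and −0.88 and Rapgef2 by −0.67 and −0.66, so that these effects were smaller at both later times. Among lowered genes Plekhs1 changed by 1.57 and 2.41, Dnajc28 by 1.42 and 1.80, Snx30 by 0.51 and 0.55, Zfp704 by 0.46 and 0.84 and Rab7b by 0.38 and 0.42, and Cd300lb by 0.68 at 24 h. A positive value means here that the reduction had become smaller, and for Plekhs1 it ended above 0 (0.61 at 24 h). The FcMR libraries of 12 h and 24 h differ among themselves in GC tilt, and its part in these differences was not tested gene by gene.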

How the results depend on the processing

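The FcMR against isotype comparison at 4 h gave 2390 calls, and between 1589 and 3151 when single libraries were left out, the lowest without FcMR replicate 2 and the highest without isotype replicate 3. It gave 868 in the 6 libraries alone, 3841 with GC correction, 4582 with GC tilt as a covariate and 3898 without the libraries out of title order. GC correction within the 6 libraries, chosen after seeing the data, gave 2398. The difference between 12 h and 4 h gave 726 calls, 352 to 1422 with single libraries left out (without FcMR replicate 2 and isotype replicate 3), 349 without an expression filter, 400 with limma on the authors' normalized values, 1700 with GC correction, 2236 with the covariate and 388 after thinning. The difference between 24 h and 4 h gave 1873, 1282 to 2831 (the same libraries), 1199 without a filter, 3142 with GC correction, 3793 with the covariate, 1212 after thinning and 3713 without the libraries out of title order. The cause of these shifts was not tested. A replicate block gave 2541, 798 and 2011 calls for the 3 comparisons, and with GC correction 3935, 1886 and 3336. At 4 h, deviations of same-numbered libraries correlated at 0.027, −0.17 and −0.074, and those of differently numbered libraries at −0.075 to 0.19. Deviations from a mean of 3 libraries depend on each other and carry the GC tilt. This check therefore cannot tell whether the numbers pair the samples. Named called genes kept their direction in all 2264 comparisons with alternatives, of which 177 lost the call, and 72 of 108 genes were called in each alternative that gave a value. They were chosen from these same libraries, most of them for large called changes, so a turn of direction was unlikely in advance. Isotype depth, 5532225 to 9171892 counts, limits low genes.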
